A study of Mus musculus with 6 samples.

Results

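The small leucine-rich proteoglycans (SLRPs) are secreted matrix proteins, and 10 SLRP genes were examined among the 57132 genes counted in wildtype (WT) and Alport syndrome (AS) podocytes: Bgn (biglycan), Dcn (decorin), Aspn (asporin), Lum (lumican), Fmod (fibromodulin), Prelp, Omd (osteomodulin), Kera (keratocan), Ogn (osteoglycin) and Podn (podocan). They were taken by name as a gene family, and the family was picked because Bgn was low in AS podocytes, so that all differences between the lines in these 10 genes are given as descriptions, with no p-value and with no support drawn from a call. RNA came from 3 samples of the IMWT line (WT, Col4a3+/+) and 3 samples of the IMAS line (AS, Col4a3-/-), immortalized murine podocytes from the kidney of male mice aged 8 weeks. The labels give growth at 33 °C with 10% fetal bovine serum and interferon gamma at 20 U/mL, then differentiation for 14 days at 37 °C, and no treatment in either line, while the methods of the study give another medium, less interferon gamma and a shorter differentiation. Both lines also carry the H-2kb-tsA58 transgene, a temperature-sensitive large T antigen driven by an interferon-inducible promoter. Each genotype is 1 line, so genotype and line cannot be told apart, and since the labels do not say whether the numbered sets are separate cultures, the spread between samples may be technical.

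SLRPs are built on a core of leucine-rich repeats, and most carry chains of chondroitin, dermatan or keratan sulfate. They bind collagen fibrils and set their spacing and width, and they also hold growth factors such as TGF-beta in the matrix. Biglycan that is released from the matrix can act on the receptors TLR2 and TLR4, and in the glomerulus biglycan and decorin are best known from matrix accumulation.

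Expression is given as CPM, the read count of a gene relative to the TMM-scaled size of its library. Total counts lay between 45417221 and 54290968 per sample. Col4a3, which the labels give as -/- in the AS line, was at 1087 ± 170 CPM in the WT line and 68.8 ± 12.2 CPM in the AS line (SD, n = 3 each). The AS samples still held 2809, 3146 and 4565 Col4a3 reads, so its transcript was lower but detected. Of the podocyte markers, Tcf21 had 0 counts in all 6 samples and Ptpro was below 0.1 CPM in both lines, while Synpo, which encodes the actin-binding protein synaptopodin, was at 803 CPM in the WT line and 526 CPM in the AS line (means, n = 3). The median log2 fold change of AS over WT was 0.0061 over all 16263 genes tested and 0.32 over the expressed genes of chromosome 10, where Dcn, Lum and Kera lie.

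Bgn was the SLRP gene with the most transcript in WT podocytes, and almost all of it was missing in AS podocytes. Its level was 1036, 923 and 1006 CPM across the WT samples and 7.57, 5.08 and 7.12 CPM in the AS samples. Every AS sample lay far below every WT sample, and the spread inside a line was small beside the gap between the lines. The mean was 988 ± 58.9 CPM in the WT line and 6.59 ± 1.33 CPM in the AS line (SD, n = 3 each), which is 0.00667 times as much (log2 fold change -7.23, standard error 0.15). Among the 9156 genes with a mean of at least 10 CPM, only 1 other gene had a lower log2 fold change. Over all genes tested, without this cut, Bgn was at rank 23 from the lowest. The family was picked because Bgn was low, so nothing is read from these ranks. The residual signal in AS podocytes rests on 341, 261 and 392 reads, so Bgn was low but detected in each AS sample. Bgn transcript per sample was measured in bulk RNA, in which fewer cells with Bgn and less Bgn RNA per cell cannot be told apart.

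Bgn lies on chromosome X, where the median log2 fold change of expressed genes was -0.040. The nearest tested protein-coding gene on each side was higher in AS podocytes. Haus7, a subunit of the augmin complex of the spindle, was at 7.98 CPM in the WT line and 12.1 CPM in the AS line and rose (log2 fold change 0.60, standard error 0.11, adjusted p = 0.00169 in edgeR's quasi-likelihood test). Dusp9, a phosphatase of MAP kinases on the other side of Bgn, rose from 0.481 to 1.10 CPM (log2 fold change 1.20, standard error 0.28, adjusted p = 0.00737 in edgeR's quasi-likelihood test). Bgn thus stood between genes with a change of the opposite sign.

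The sequence upstream of the Bgn start is shown because Bgn was far lower in the AS line while the genes beside it were higher. It is taken from RefSeq (GRCm38.p6, chrX:73483351-73483600, plus strand), covers the 250 bases before the start, and is used as reference sequence only, since the counts were made on another build. Capitals mark matches to 6 short motifs that were searched on both strands, namely the GC box GGGCGG, the TATA box TATAAA, the CCAAT box CCAAT, the AP-1 motif TGANTCA, the TEAD motif CATTCC and the E-box CACGTG.
Bgn: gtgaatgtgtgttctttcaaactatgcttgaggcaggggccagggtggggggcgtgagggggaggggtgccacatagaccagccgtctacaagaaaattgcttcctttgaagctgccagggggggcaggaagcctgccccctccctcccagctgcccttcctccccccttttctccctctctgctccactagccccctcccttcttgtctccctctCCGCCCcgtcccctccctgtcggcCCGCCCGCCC
The window held 3 GC boxes, which start at bases -34, -10 and -6 from the start and of which the last pair overlaps, and none of the other motifs. A GC box was present in 32.7% of 32851 upstream windows of the same length. The GC content was 64.4% and the window held 7 CpG dinucleotides, against a median of 52.4% and 6 over all windows. These letters are a description of the reference and show nothing about the binding of a factor or the methylation of this region in the podocytes.

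Ogn was the SLRP gene with the most transcript in AS podocytes. Osteoglycin, also called mimecan, is a class III SLRP of connective tissue and bone. Its level was 80.0, 92.0 and 85.9 CPM across the WT samples and 545, 484 and 598 CPM in the AS samples. The samples of the lines did not overlap, and the lowest AS sample was above the highest WT sample by several times. The mean was 85.9 ± 5.98 CPM in the WT line and 542 ± 57.4 CPM in the AS line (SD, n = 3 each), which is 6.31 times the WT level (log2 fold change 2.66, standard error 0.09).

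Omd, which encodes a keratan sulfate SLRP of mineralized tissue, was also higher in AS podocytes. It was at 4.65, 4.85 and 3.38 CPM across the WT samples and at 21.8, 15.5 and 19.4 CPM in the AS samples, without overlap. The AS mean was 4.40 times the WT mean (log2 fold change 2.14, standard error 0.17). Aspn, which encodes asporin, a class I SLRP with an aspartate stretch, was near the limit of detection, with 1, 8 and 5 reads across the WT samples and 14, 20 and 12 reads in the AS samples. Its AS samples lay above its WT samples, at 0.0997 ± 0.0760 CPM in the WT line and 0.306 ± 0.0856 CPM in the AS line (SD, n = 3 each), but the log2 fold change of 1.61 had a standard error of 0.63 and fell to 1.11 without WT replicate 1.

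**Figure D1:**
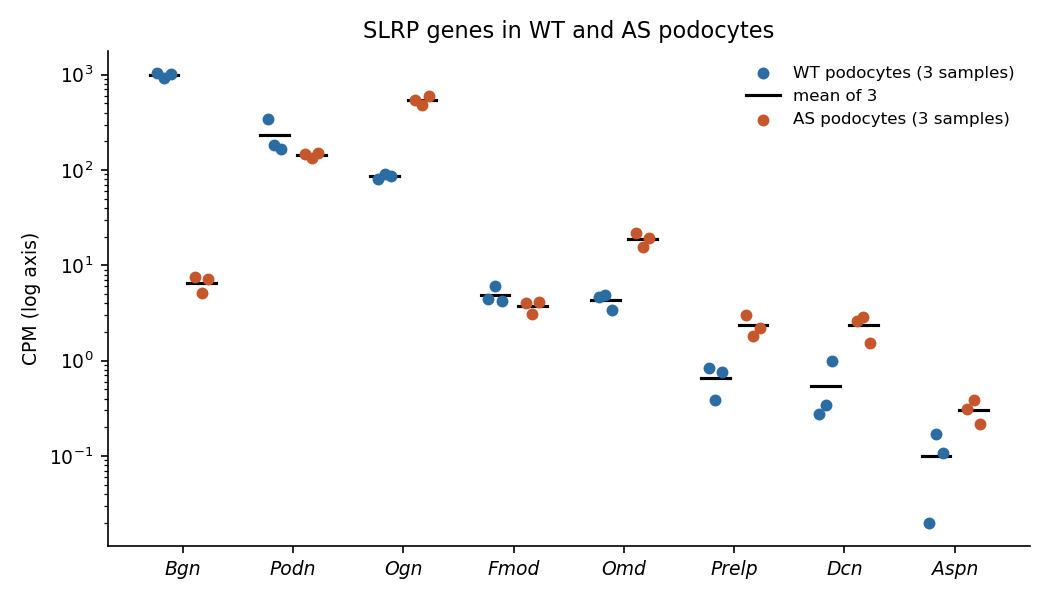
CPM on a log axis of the 8 SLRP genes with reads, 1 point per sample, with a bar at the mean of the 3 samples of each line. Bgn is near 1000 CPM in WT and between 5.08 and 7.57 CPM in AS podocytes, while Ogn, Omd, Prelp, Dcn and Aspn are higher in all 3 AS samples than in any WT sample.

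Ogn, Omd and Aspn are neighbours on chromosome 13, and a further SLRP gene, Ecm2, stands next to Aspn, so that the order is Ecm2, Aspn, Omd and Ogn, all on the same strand. Ecm2, which was not among the 10 genes and encodes an extracellular matrix protein with leucine-rich repeats, was at 0.237, 0.256 and 0.173 CPM across the WT samples and at 1.47, 0.681 and 1.53 CPM in the AS samples. It rose in AS podocytes (log2 fold change 2.45, standard error 0.42, adjusted p = 0.00143 in edgeR's quasi-likelihood test), although its highest AS level was below 2 CPM. All 4 genes of the run had AS samples above their WT samples, and their log2 fold changes were between 1.61 and 2.66. Of all genes tested, 26.4% had every AS sample above every WT sample and 26.0% had every AS sample below. Ecm2 had 12, 12 and 8 reads across the WT samples, and Aspn had fewer. Both therefore had enough reads to be tested only through the AS samples, which favours a rise, so the shared direction of the run rests on Omd and Ogn. The median over the expressed genes of chromosome 13 was 0.0032. Outside the run on the Ogn side, Nol8, a nucleolar protein gene, was at 32.6 ± 2.14 CPM (SD, n = 3) in the WT line and 34.3 CPM in the AS line (log2 fold change 0.07, standard error 0.07, adjusted p = 0.443 in edgeR's quasi-likelihood test). Outside the run on the Ecm2 side, Tes3-ps fell from 1.63 to 0.952 CPM (log2 fold change -0.77, standard error 0.24, adjusted p = 0.0286 in edgeR's quasi-likelihood test). The gene body of Cenpp, which encodes a centromere protein, overlaps all 4 SLRP genes on the opposite strand, and it was at 1.91 ± 0.814 CPM (SD, n = 3) in the WT line and 1.70 CPM in the AS line (log2 fold change -0.17, standard error 0.32, adjusted p = 0.715 in edgeR's quasi-likelihood test). As no source states that strand was used in counting, reads from shared stretches cannot be assigned to 1 of the overlapping genes. Tes3-ps and Cenpp were named after their values were seen.

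**Figure D2:**
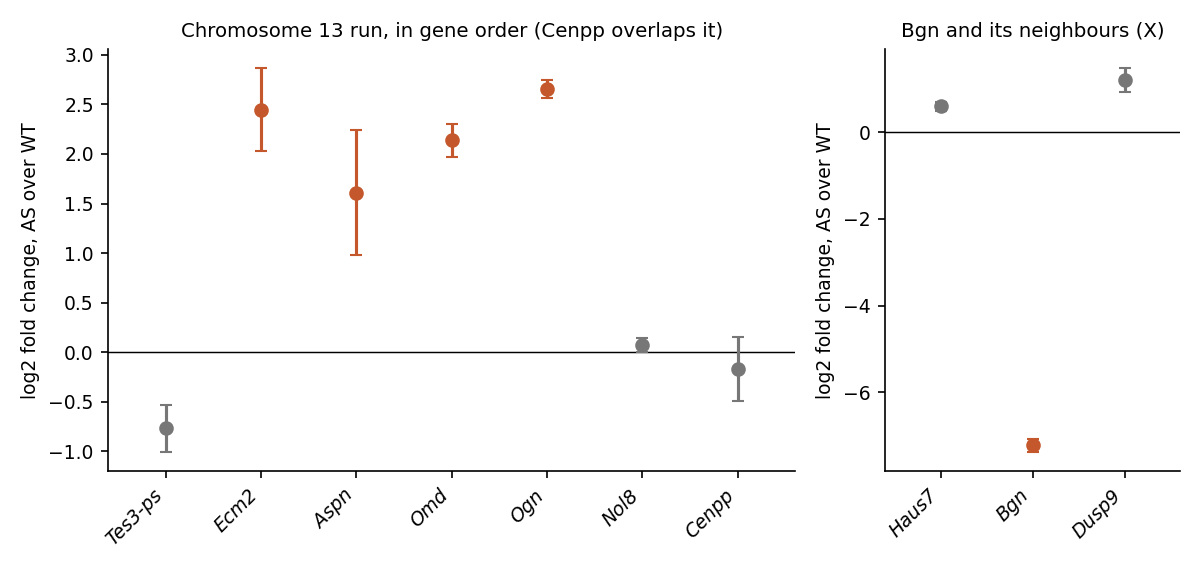
Log2 fold change of AS over WT (points) with its standard error (bars) for the SLRP run on chromosome 13 with the genes around it, left, and for Bgn with its nearest tested genes on chromosome X, right. SLRP genes are orange and other genes are gray. The 4 SLRP genes of the run lie between 1.61 and 2.66 with Nol8 at 0.07, and Bgn lies at -7.23 between 2 genes above 0.

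The upstream windows of the run are shown because the AS samples lay above the WT samples in each of these 4 genes, of which Aspn was near the limit of detection. They are from RefSeq (GRCm38.p6, plus strand), 250 bases before each start, at chr13:49504560-49504809 for Ecm2, chr13:49544193-49544442 for Aspn, chr13:49582212-49582461 for Omd and chr13:49607765-49608014 for Ogn, and capitals mark the same 6 motifs as above.
Ecm2: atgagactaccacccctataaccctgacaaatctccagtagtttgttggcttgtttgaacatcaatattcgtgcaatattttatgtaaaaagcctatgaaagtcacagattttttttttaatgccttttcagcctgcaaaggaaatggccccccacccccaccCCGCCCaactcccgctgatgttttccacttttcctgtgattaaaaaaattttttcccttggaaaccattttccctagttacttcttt
Aspn: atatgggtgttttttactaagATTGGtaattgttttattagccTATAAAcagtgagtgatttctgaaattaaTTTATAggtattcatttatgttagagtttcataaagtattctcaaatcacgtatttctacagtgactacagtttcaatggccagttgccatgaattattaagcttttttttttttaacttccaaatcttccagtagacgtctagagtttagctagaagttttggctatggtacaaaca
Omd: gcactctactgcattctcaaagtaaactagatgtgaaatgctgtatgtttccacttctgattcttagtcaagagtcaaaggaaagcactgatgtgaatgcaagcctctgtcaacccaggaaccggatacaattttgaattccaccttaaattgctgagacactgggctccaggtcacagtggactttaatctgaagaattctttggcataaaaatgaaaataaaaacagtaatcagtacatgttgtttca
Ogn: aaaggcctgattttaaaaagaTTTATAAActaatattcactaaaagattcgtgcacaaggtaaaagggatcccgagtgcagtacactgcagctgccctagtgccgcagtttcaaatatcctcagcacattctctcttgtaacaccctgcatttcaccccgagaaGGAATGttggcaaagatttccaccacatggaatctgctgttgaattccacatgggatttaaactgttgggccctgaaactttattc
No motif of the 6 was found in all 4 windows. Ogn held the TATA box letters at bases -229 and -227 on both strands of 1 stretch, and the TEAD letters at base -86. A short stretch after the Ogn start was not found in a GENCODE M21 transcript of Ogn, unlike that of Ecm2, Aspn and Omd. The Ogn positions are therefore less certain. Aspn held the TATA box letters at bases -207 and -178 and a CCAAT box at base -229. Ecm2 held a single GC box at base -87, and Omd held none of the 6. TATA box letters were present in 12.4%, TEAD letters in 12.6% and the CCAAT box in 33.8% of all windows. The GC content was 40.0% in Ecm2, 30.0% in Aspn, 38.4% in Omd and 42.0% in Ogn, each below the median of all windows, and each held between 1 and 4 CpG dinucleotides. In these letters the windows of the run differed from that of Bgn, which was richer in GC.

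Podn and Fmod differed between the lines by far less than Bgn. Podocan is a class V SLRP known from the glomerulus, and Podn was at 346, 182 and 166 CPM across the WT samples and at 146, 133 and 150 CPM in the AS samples. The samples did not overlap, but WT replicate 1 was 2.09 times the lowest WT sample. The mean was 231 ± 99.7 CPM in the WT line and 143 ± 8.78 CPM in the AS line (SD, n = 3 each), at a log2 fold change of -0.69 (standard error 0.23), which was -0.28 without WT replicate 1. The Podn gene overlaps Scp2, a sterol carrier gene on the same strand, which fell in AS podocytes (193 to 138 CPM, log2 fold change -0.49, adjusted p = 0.00440 in edgeR's quasi-likelihood test), so that reads from their shared stretch are uncertain. Fmod, which encodes a keratan sulfate SLRP that shapes collagen fibrils, was at 4.46, 6.07 and 4.23 CPM across the WT samples and at 4.02, 3.09 and 4.14 CPM in the AS samples. Its groups were separated only narrowly, and its log2 fold change of -0.39 had a standard error of 0.19 and was -0.21 without WT replicate 2.

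Dcn and Prelp were low in both lines and higher in AS podocytes. Decorin is the closest relative of biglycan and binds TGF-beta and collagen I. Dcn was at 0.276, 0.342 and 0.997 CPM across the WT samples and at 2.62, 2.90 and 1.53 CPM in the AS samples. WT replicate 3 stood above the other WT samples and still below each AS sample. The AS mean was 4.36 times the WT mean (log2 fold change 2.13, standard error 0.46), the log2 fold change was 2.91 without WT replicate 3, and it was 1.80 with the median of chromosome 10 removed. Prelp, whose protein anchors basement membrane to connective tissue, was at 0.828, 0.385 and 0.759 CPM across the WT samples and at 3.02, 1.81 and 2.20 CPM in the AS samples, without overlap (log2 fold change 1.82, standard error 0.33). The high Dcn and Prelp folds thus stand on a few CPM, far below the Bgn level of WT podocytes.

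Lum and Kera had 0 counts in all 6 samples. Both encode keratan sulfate SLRPs of the cornea, and 3 counts over a group set the limit of detection at 0.0209 CPM in the WT line and 0.0198 CPM in the AS line, which covers counting error only. They lie beside Dcn on chromosome 10, as does Epyc, a SLRP gene of cartilage that also had 0 counts, so that Dcn alone of this run of 4 was detected. In the run on chromosome 1, Prelp was higher in AS podocytes, while the AS samples of its neighbours Optc and Fmod lay narrowly below their WT samples. Optc was at 0.468 and 0.340 CPM in the lines (log2 fold change -0.45, adjusted p = 0.352 in edgeR's quasi-likelihood test).

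Of the 8 SLRP genes with enough reads to be tested, 6 were called at 0.05 by the adjusted p of edgeR, 4 higher (Ogn, Omd, Dcn and Prelp) and 2 lower (Bgn and Podn), where 40.1% of all genes tested passed, 20.4% higher and 19.6% lower. The groups did not overlap in any of the 8, with 5 above and 3 below, against 52.3% of all genes tested, 26.4% above and 26.0% below. As the family was chosen on this contrast, nothing is read from these counts. Podn lost its call in 6 of 14 alternative fits, and Aspn and Fmod were called in 0.

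The order of the SLRP genes can be set only per length, as CPM per kilobase of exon. With the exons of all transcripts of a gene together, Bgn was at 162 ± 9.66, Podn at 54.1 ± 23.3, Ogn at 33.5 ± 2.33, Omd at 1.91 ± 0.355 and Fmod at 1.49 ± 0.303 CPM per kilobase in WT podocytes (SD, n = 3 each). The first 3 were separate in all samples, whereas Omd and Fmod overlapped. Prelp, Dcn and Aspn were each below 0.2 CPM per kilobase on average, and the samples of Prelp and Dcn overlapped, as did those of Dcn and Aspn. In AS podocytes Ogn was at 211 ± 22.4, Podn at 33.5 ± 2.06, Omd at 8.41 ± 1.42, Fmod at 1.13 ± 0.173 and Bgn at 1.08 ± 0.218 CPM per kilobase (SD, n = 3 each). Ogn, Podn and Omd were separate, Fmod and Bgn overlapped, and Prelp, Dcn and Aspn followed at 0.648, 0.402 and 0.13 CPM per kilobase, with samples of Bgn and Prelp that overlapped.

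The SLRP transcripts thus changed in make-up from mostly Bgn to mostly Ogn. Bgn held 59.5, 64.7 and 68.6% of the summed level per kilobase in the WT samples against 0.477, 0.363 and 0.417% in the AS samples. Ogn held 10.9, 15.3 and 13.9% of it in the WT samples against 81.6, 82.1 and 83.2% in the AS samples. Podn, the gene after the leading one in both lines, held 20.9 ± 6.53% in the WT line and 13.1 ± 0.529% in the AS line (SD, n = 3 each). The sum over the 10 genes was 253 ± 28.3 CPM per kilobase in the WT line and 257 ± 25.6 in the AS line (SD, n = 3 each), but this likeness depends on the length given to Bgn. With the longest transcript of each gene, for which Bgn has 2666 in place of 6099 bases, the sum was 472 ± 42.5 in the WT line and 264 ± 26.2 CPM per kilobase in the AS line (SD, n = 3 each). Without Bgn, the summed CPM of the other 9 genes was 328 ± 94.8 in the WT line and 713 ± 68.2 in the AS line (SD, n = 3 each).

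**Figure D3:**
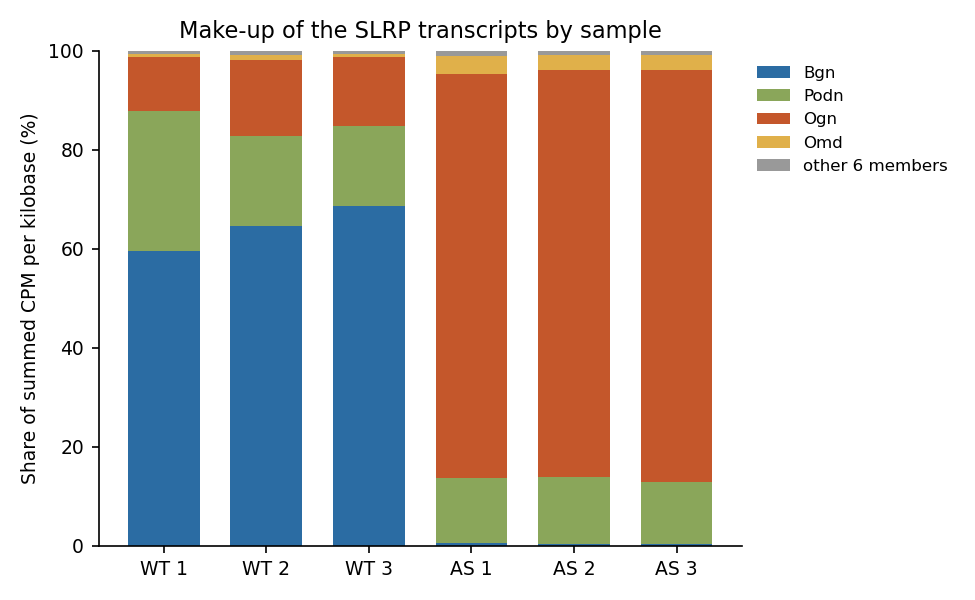
Share in percent of the summed CPM per kilobase of exon over the 10 SLRP genes, 1 stacked bar per sample. Bgn takes 59.5 to 68.6% of each WT bar and under 0.5% of each AS bar, while Ogn takes 10.9 to 15.3% of the WT bars and 81.6 to 83.2% of the AS bars.

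Inside a line the SLRP genes differed in how evenly they were expressed. The coefficient of variation over 3 samples was 5.96% for Bgn and 6.95% for Ogn in WT podocytes, and 20.2% for Bgn and 10.6% for Ogn in AS podocytes. It was 43.1% for Podn in WT against 6.14% in AS podocytes, with WT replicate 1 as the high sample, and 74.0% for Dcn in WT against 30.9% in AS podocytes, with WT replicate 3 as the high sample.

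The other 8 SLRP family genes were tested in the same fit, and 5 had enough reads. Of these, 4 rose in AS podocytes and 0 fell, where 20.4% of all genes tested rose and 19.6% fell, with a median log2 fold change of 0.62 against 0.0061 for all genes tested. Ecm2, 1 of the 4, had enough reads to be tested only through the AS samples. Besides Ecm2, Podnl1, the relative of podocan, rose from 0.930 ± 0.332 to 3.39 ± 0.694 CPM (SD, n = 3 each, log2 fold change 1.87, adjusted p = 0.000902 in edgeR's quasi-likelihood test). It lies on chromosome 8, whose median log2 fold change was 0.32. Tsku, which encodes tsukushi, a secreted regulator of BMP and Wnt signalling, rose from 33.7 ± 3.41 to 41.4 ± 1.49 CPM (SD, n = 3 each, log2 fold change 0.30, adjusted p = 0.0159 in edgeR's quasi-likelihood test). Chadl, a relative of chondroadherin, rose from 2.29 ± 0.504 to 3.54 ± 0.0903 CPM (SD, n = 3 each, log2 fold change 0.62, adjusted p = 0.0295 in edgeR's quasi-likelihood test). Chadl overlaps L3mbtl2 on the opposite strand, so its reads are uncertain too. Chadl lost its call without WT replicate 3 and without any 1 of the AS samples (adjusted p from 0.0654 to 0.0816 in edgeR's quasi-likelihood test), and it also did so with the median of chromosome 15, 0.20, removed (log2 fold change 0.42, adjusted p = 0.132 in edgeR's quasi-likelihood test). Tsku lost its call without WT replicate 3, AS replicate 2 or AS replicate 3 (adjusted p from 0.0536 to 0.0571 in edgeR's quasi-likelihood test), and only 2 genes passed without 1 of these 3 samples. Nyx and Chad were below 0.2 CPM in both lines and were not tested.

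The enzymes that build the sulfated chains of SLRPs changed in both directions. Of 29 genes, 28 were tested, 9 rose and 5 fell, beside 20.4% and 19.6% of all genes tested, and the median log2 fold change was 0.05. Pxylp1, the phosphatase that removes the phosphate from the linkage xylose, was at 4.56, 4.36 and 3.77 CPM across the WT samples and at 19.6, 14.5 and 20.0 CPM in the AS samples (log2 fold change 2.09, standard error 0.15, adjusted p = 6.90e-06 in edgeR's quasi-likelihood test). Csgalnact1, which adds the first N-acetylgalactosamine of a chondroitin chain, was at 6.31, 7.71 and 7.65 CPM across the WT samples and at 29.7, 27.0 and 34.2 CPM in the AS samples (log2 fold change 2.07, standard error 0.12, adjusted p = 1.51e-06 in edgeR's quasi-likelihood test). Both genes rose about as far as Omd, with no overlap between the lines. Xylt1, a xylosyltransferase that starts the chain on the core protein, fell from 23.5 ± 2.73 to 12.4 ± 1.57 CPM (SD, n = 3 each, log2 fold change -0.93, adjusted p = 0.000283 in edgeR's quasi-likelihood test). Its relative Xylt2 was at 25.3 ± 0.323 and 23.4 ± 0.642 CPM (SD, n = 3 each, log2 fold change -0.11, adjusted p = 0.187 in edgeR's quasi-likelihood test). Chst2, a sulfotransferase of N-acetylglucosamine, fell from 32.0 ± 1.60 to 18.7 ± 0.658 CPM (SD, n = 3 each, log2 fold change -0.78, adjusted p = 2.82e-05 in edgeR's quasi-likelihood test).

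Receptors and growth factors that SLRPs bind or signal through were measured as well. Of 20 genes, 19 were tested, 5 rose and 8 fell, beside 20.4% and 19.6% of all genes tested, and the median log2 fold change was 0.03. Of the biglycan receptors, Tlr4 fell from 25.2 ± 2.28 to 19.3 ± 2.71 CPM (SD, n = 3 each, log2 fold change -0.39, adjusted p = 0.0183 in edgeR's quasi-likelihood test). It did not pass without AS replicate 2 or AS replicate 3 (adjusted p = 0.0668 and 0.0804 in edgeR's quasi-likelihood test). Tlr2 was at 26.2 ± 8.03 and 31.3 ± 2.93 CPM (SD, n = 3 each, log2 fold change 0.25, adjusted p = 0.292 in edgeR's quasi-likelihood test), and without WT replicate 1 it passed as higher (log2 fold change 0.53, adjusted p = 0.000681 in edgeR's quasi-likelihood test). Their shared co-receptor Cd14 rose from 13.5 ± 2.95 to 26.7 ± 3.07 CPM (SD, n = 3 each, log2 fold change 0.98, adjusted p = 0.000673 in edgeR's quasi-likelihood test). P2rx7, an ATP-gated channel of the inflammasome route, fell from 20.8 ± 2.94 to 6.90 ± 0.465 CPM (SD, n = 3 each, log2 fold change -1.59, adjusted p = 1.04e-05 in edgeR's quasi-likelihood test). Egfr, a receptor for decorin, fell from 675 ± 11.5 to 420.0 ± 20.8 CPM (SD, n = 3 each, log2 fold change -0.68, adjusted p = 2.95e-05 in edgeR's quasi-likelihood test).

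Among the growth factors, Bmp4, a ligand that biglycan binds, fell in AS podocytes. It was at 240, 215 and 256 CPM across the WT samples and at 77.0, 68.7 and 70.9 CPM in the AS samples, with all AS samples below all WT samples (log2 fold change -1.71, standard error 0.08, adjusted p = 3.56e-07 in edgeR's quasi-likelihood test). Tgfb1 rose from 21.4 ± 1.76 to 26.5 ± 1.45 CPM (SD, n = 3 each, log2 fold change 0.31, adjusted p = 0.0139 in edgeR's quasi-likelihood test), and its call was lost when WT replicate 3 or AS replicate 3 was left out (adjusted p = 0.0558 and 0.0627 in edgeR's quasi-likelihood test). The other TGF-beta genes, named after their values were seen, did not share this direction. Tgfb3 fell from 856 ± 62.0 to 612 ± 29.8 CPM (SD, n = 3 each, log2 fold change -0.48, adjusted p = 0.000738 in edgeR's quasi-likelihood test), and Tgfb2 was at 94.7 ± 9.44 and 96.5 ± 7.56 CPM (SD, n = 3 each, log2 fold change 0.03, adjusted p = 0.830 in edgeR's quasi-likelihood test).

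Among the collagens that SLRPs bind, the chains of collagen I went in opposite directions. Of 15 genes, 14 were tested, 5 rose and 3 fell, beside 20.4% and 19.6% of all genes tested, and the median log2 fold change was 0.23. Col1a1 was at 19.5, 26.9 and 26.6 CPM across the WT samples and at 430, 410 and 591 CPM in the AS samples (log2 fold change 4.29, standard error 0.18, adjusted p = 1.87e-07 in edgeR's quasi-likelihood test). Col1a2, the other chain of collagen I, was at 37.7, 23.5 and 30.7 CPM across the WT samples and at 0.932, 0.739 and 1.33 CPM in the AS samples (log2 fold change -4.92, standard error 0.24, adjusted p = 5.14e-07 in edgeR's quasi-likelihood test). Both chains thus lay in separate ranges in the lines, and in opposite order. Col3a1 of collagen III rose from 9.44 ± 1.58 to 198 ± 32.9 CPM (SD, n = 3 each, log2 fold change 4.39, adjusted p = 6.15e-08 in edgeR's quasi-likelihood test). Col6a1 of collagen VI rose from 59.9 ± 7.64 to 302 ± 23.4 CPM (SD, n = 3 each, log2 fold change 2.34, adjusted p = 2.41e-07 in edgeR's quasi-likelihood test). The collagen V chain Col5a2 fell from 2155 ± 485 to 240 ± 18.2 CPM (SD, n = 3 each, log2 fold change -3.17, adjusted p = 7.31e-07 in edgeR's quasi-likelihood test). Its partner Col5a1 was at 1422 and 1515 CPM (adjusted p = 0.370 in the same test). Of the other collagen VI chains, Col6a2 rose from 5.65 to 36.4 CPM and the low Col6a3 fell from 0.780 to 0.323 CPM (adjusted p = 9.74e-06 and 0.0452 in the same test). Col5a2, Col5a1, Col6a2 and Col6a3 were named after their values were seen.

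Of 11 genes for proteases that process SLRPs and their helpers, 8 were tested, 3 rose and 3 fell, beside 20.4% and 19.6% of all genes tested, and the median log2 fold change was -0.11. Bmp1, which removes the propeptide of biglycan, fell from 305 ± 21.5 to 249 ± 8.68 CPM (SD, n = 3 each, log2 fold change -0.29, adjusted p = 0.00621 in edgeR's quasi-likelihood test). Pcolce, an enhancer of Bmp1 on procollagen, rose from 189 ± 5.34 to 354 ± 13.8 CPM (SD, n = 3 each, log2 fold change 0.91, adjusted p = 3.13e-06 in edgeR's quasi-likelihood test). The membrane protease gene Mmp14 rose from 276 ± 14.7 to 427 ± 18.2 CPM, and the proteoglycan-cleaving Adamts4 fell from 21.3 ± 1.50 to 12.3 ± 2.33 CPM (SD, n = 3 each, adjusted p = 6.31e-05 and 0.00119 in edgeR's quasi-likelihood test). The number of genes that passed was 4 with the chromosome medians removed and without WT replicate 2, WT replicate 3 or AS replicate 1.

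**Figure D4:**
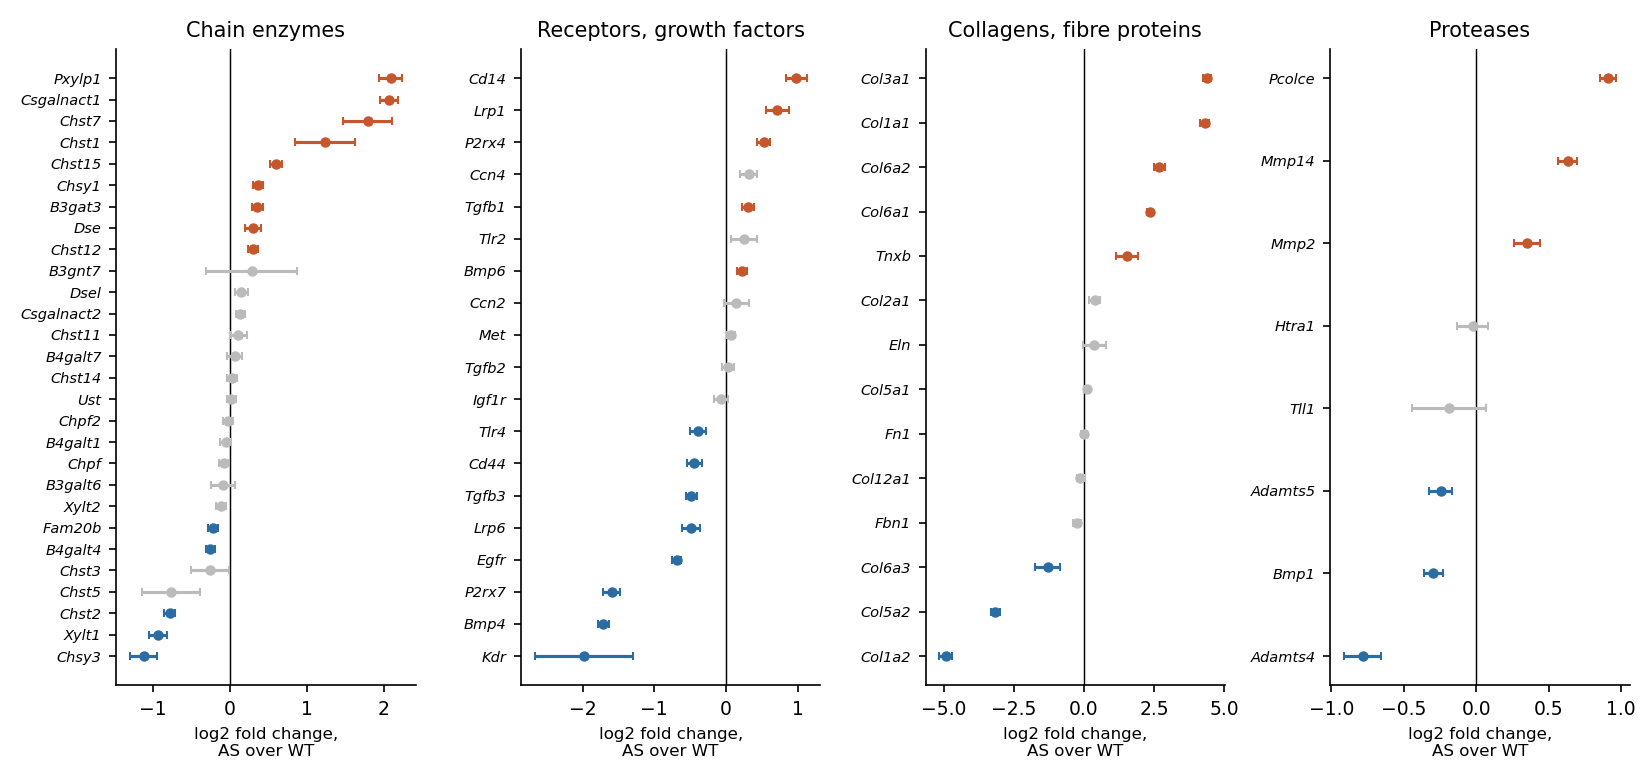
Log2 fold change of AS over WT (points) with its standard error (bars) for the tested genes of 4 lists, sorted within each list. Orange genes rose, blue genes fell and gray genes did not pass an adjusted p under 0.05. Pxylp1 and Csgalnact1 lead the chain enzymes at 2.09 and 2.07, and Col3a1 and Col1a1 stand at 4.39 and 4.29 opposite Col1a2 at -4.92.

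Markers of other cell types are given beside these results, and their part in them was not tested. The summed level of 10 fibroblast or mesangial markers was 9802 to 12290 CPM in WT and 9191 to 10761 CPM in AS podocytes, so the sums overlapped. This sum is mostly Acta2 and Tagln, and of its genes 1 rose and 4 fell. These 5 are named since they passed. Postn, a matrix protein gene of activated fibroblasts, rose from 18.9 to 86.0 CPM, while Cspg4 and Pdgfrb, both genes of pericytes and mesangial cells, fell from 10.2 to 0.445 and from 253 to 116 CPM, Thy1 fell from 1.19 to 0.0666 CPM and Tagln fell from 4158 to 2859 CPM (adjusted p of 0.00326 or less in edgeR's quasi-likelihood test). That of 11 podocyte markers was 1725 to 1897 CPM in WT and 1293 to 1379 CPM in AS podocytes, with 6 genes that fell and 1 that rose. That of 5 parietal epithelial markers was 380 to 467 and 326 to 349 CPM, that of 6 tubule markers 377 to 424 and 280 to 391 CPM, and that of 5 chondrocyte or osteoblast markers, a tissue in which several SLRPs are abundant, 90.3 to 138 and 60.9 to 87.8 CPM, in WT and AS podocytes. Of the last list, Sox9 fell from 84.2 ± 26.6 to 50.8 ± 14.0 CPM (SD, n = 3 each, adjusted p = 0.0280 in edgeR's quasi-likelihood test). Its groups were separated only narrowly, at 115, 70.0 and 67.7 CPM across the WT samples and 66.9, 42.5 and 42.9 CPM in the AS samples. Replicate 1 was the high sample in both lines. Runx2 was at 21.9 and 19.8 CPM and was not called, and Bglap was at 0.270 and 0.177 CPM. The cartilage proteoglycan gene Acan and the osteoblast factor gene Sp7 were below 0.1 CPM in both lines. The summed level of 6 endothelial markers was at most 1.06 CPM and that of 5 macrophage markers at most 15.4 CPM in any sample.

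The genes most like the 4 SLRP genes with at least 10 CPM in a line were found by the root mean square difference of centred log2 CPM over the 6 samples, which mostly follows the step between the lines. For Bgn they were Ano2, Rbm46 and Dcdc2a (difference 0.35 each), of which Ano2, a calcium-activated chloride channel gene, was at 18.3 CPM in the WT line and 0.122 CPM in the AS line. In the AS samples Ano2 had 9, 2 and 7 reads, Dcdc2a had 2, 4 and 4, and Rbm46 had 0 in each. At such counts the log2 CPM depends on the small count added before the logarithm, so the likeness of these genes to Bgn is uncertain. For Ogn they were Armc10, Gstt1 and Rpl29 (0.14, 0.16 and 0.17), and Armc10 was at 36.8 and 228 CPM. Rpl29 has many near-identical copies, so its counts are uncertain. For Omd they were Pxylp1, Gclc and Col6a1 (0.11, 0.16 and 0.16), of which Pxylp1 and Col6a1 belong to the lists above. For Podn they were Trib2, Ano5 and Ackr3 (0.06, 0.12 and 0.13), whose log2 fold changes were -0.69, -0.60 and -0.54.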

How the data were processed

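RNA of 3 WT and 3 AS samples was sequenced from poly(A) libraries made with 15 cycles of PCR. The deposited values are raw counts per gene, made by the authors. Their processing notes name FastQC, Trim Galore, STAR, edgeR and the build mm39, while the sources used here state no counting tool, strand setting or annotation. Of 57132 identifiers, 51880 were named from GENCODE M21 (GRCm38), which also gave lengths and gene order, and the genes without a name held 0.363% of counts. The study names limma with voom. The main model here used edgeR 4.0.16 under R 4.3.3, a count model, with limma 3.58.1 and DESeq2 1.42.0 as alternatives. Genes passed filterByExpr (minimum count 10, minimum total 15), were scaled by TMM and tested two-sided with edgeR's quasi-likelihood test, genotype as the only term and Benjamini-Hochberg adjustment over all 16263 genes. The standard error is the log2 fold change over the square root of F, an approximation. With 3 samples a line, the smallest exact permutation p is 0.10. The fits were also run on simulated counts with far fewer changed genes than were called here and smaller folds than that of Bgn. That run therefore does not vouch for the calls made in these data.

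The SLRP genes and all gene lists were chosen with earlier results of these data known. Named genes were the SLRP family, the 4 genes of each further list with the smallest p and a mean CPM of at least 1, Xylt1, Xylt2, Tlr2, Tlr4, Tgfb1, Col1a1 and Col4a3, the 3 most similar protein-coding genes and the nearest tested neighbours of SLRP genes. Alternatives were RLE scaling, library size only, no filter, a mean CPM of at least 1, DESeq2, limma-voom, a replicate block, removal of chromosome medians, each sample left out and another gene length. The value of 1 marker gene is not reported here.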

Additional observations from a re-analysis of the deposited data

How the results depend on the processing

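Each of the 8 tested SLRP genes kept its direction in every alternative fit that held it, and Bgn ran from -7.35 to -7.08 with 1 sample left out. The log2 fold change of Dcn ran from 1.81 to 2.91 with 1 sample left out, that of Podn from -0.88 to -0.28, that of Aspn from 1.11 to 2.24 and that of Fmod from -0.49 to -0.21. Of the other SLRP family genes, 2 to 4 passed with 1 sample left out. The number of all genes called ran from 5120 to 6776 with 1 sample left out. With the longest transcript as length, the share of the summed SLRP level was 78.8% for Bgn, 13.2% for Podn, 7.17% for Ogn and 0.407% for Omd in WT podocytes, and 0.931% for Bgn, 14.9% for Podn and 80.0% for Ogn in AS podocytes, where Bgn then stood above Fmod. With the replicate block 7066 genes were called in place of 6517, 14 chain enzymes and 6 SLRP genes. The replicate numbers do not mark a pairing in the labels, and deviations of samples with the same number correlated at 0.147, 0.0939 and 0.0526, with 5 of 6 samples closest to their own number. Of 612 values for other named genes, 578 kept both sign and call, 25 lost the call, 5 gained one and 4 were reversed. The log2 fold change of Atp2b1, a neighbour of Dcn, was -0.084 with chromosome medians removed, that of Btg2, a neighbour of Fmod, ran from -0.56 to 0.22 with 1 sample left out, positive without WT replicate 1, and that of Slc1a7, a neighbour of Podn, ran from -0.47 to 0.20, at 0.20 without WT replicate 1 and 0.00095 without AS replicate 2. Causes were not tested. Depth limits Aspn, Lum, Kera and the other genes below 1 CPM.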
